A study of Homo sapiens with 18 samples.

Results

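This account describes 32 genes of the ATF4 pathway and of serine, proline, one-carbon and transsulfuration metabolism in the human B cell line HAIR-M, a marginal zone lymphoma (MZL) line by its labels. They were taken by name, 32 of the 60483 gene identifiers counted, with amino acid carriers and tRNA synthetases left out. The rule uses no measured value, but the list was chosen with earlier results of these data known. RNA sequencing was run on cells given 5 nM copanlisib, which inhibits PI3K (the phosphoinositide 3-kinases), or only its solvent DMSO. The cells were collected after 4, 8 or 12 h, which gave 6 groups of 3 libraries and 18 libraries in all. The DMSO libraries of each time were the control for copanlisib at that time, and every group was the same cell line with no genetic change named. All values come from 1 cell line. The labels do not say whether the 3 replicates of a group were separate cultures, so the p-values measure the spread between libraries, which may be technical.

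ATF4 is a transcription factor whose mRNA is translated preferentially when kinases of the integrated stress response phosphorylate eIF2alpha, and mTORC1, which acts downstream of PI3K, also raises ATF4 output. With C/EBP partners it binds C/EBP-ATF response elements and turns on genes for amino acid synthesis. The serine made by PHGDH, PSAT1 and PSPH from a glycolytic intermediate feeds the folate cycle, which carries one-carbon units for nucleotide synthesis. These are background statements, and translation and protein were not measured here.

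C/EBP-ATF response elements link several of these enzymes to ATF4 in textbook accounts, so stretches of promoter that hold the letters of their core are shown here. RefSeq promoter windows of 300 bases (250 before the start site and 50 from it on, build GRCh38.p14) were on hand for 26 of the 32 genes, and both strands were searched. The core TGATGNAA occurred in 4 of 26 windows (15.4%), against 1003 of 27305 windows of all genes (3.67%). The 4 stretches follow as 30 bases 5′ to 3′ on the strand of the gene, with the core in capitals. ASNS and BCAT1 lie on the minus strand, MTHFD1L and CHAC1 on the plus strand, and in CHAC1 the core reads on the opposite strand. All 4 stretches also overlap an exon of a GENCODE 29 transcript of the same gene.
ASNS, chr7:97872458-97872487: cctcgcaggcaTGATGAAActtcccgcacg
MTHFD1L, chr6:150866346-150866375: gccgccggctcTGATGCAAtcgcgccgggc
BCAT1, chr12:24949131-24949160: tgtcttcctgcTGATGCAAtccgctaggtc
CHAC1, chr15:40953251-40953280: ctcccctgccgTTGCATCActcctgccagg
The core begins at position -68 from the start site in ASNS, -129 in MTHFD1L, -48 in BCAT1 and -209 in CHAC1. The E-box CACGTG, a core read by MYC and related factors, occurred in 5 of 26 windows (19.2%), against 2030 of 27305 (7.43%). Those 5 genes were ATF4, ALDH18A1, MTHFD1, MTHFD1L and BCAT1, so that MTHFD1L and BCAT1 held both motifs. The ATF4 stretch also overlaps an exon of a GENCODE 29 transcript of ATF4. It is shown because ATF4 leads the list, again with the motif in capitals, on the plus strand and beginning at position -82.
ATF4, chr22:39520466-39520493: gaggagacggtCACGTGgtcgcggcgga
A match of letters is a description and not a bound site. A gene without a match lacks only these letters in this window.

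Each library held 13587017 to 25566761 reads on genes. In 16 libraries 1.74% to 2.82% of the reads were unmapped and 9.07% to 10.5% of the gene reads were mitochondrial. Copanlisib replicates 1 and 2 at 4 h stood apart, with 8.73% and 5.22% unmapped and 12.4% and 12.6% mitochondrial. Their part in the 4 h results was not tested. The 4 h log2 fold changes of the tested genes of the list are shown with and without them, and other 4 h results only in part. Leaving both out leaves 1 copanlisib library at 4 h, which the fit assumes to vary like the other groups. All 8 B cell markers were detected, with a summed level of 1503 to 1548 CPM (read counts scaled to a common library size) in DMSO and 1658 to 1795 CPM in copanlisib at 4 h. At 12 h that sum was 1860 to 1890 CPM in DMSO and 2324 to 2373 CPM in copanlisib, and its part in the results was not tested. Markers of other cells were low: T and NK cell markers summed to 8.15 to 17.3 CPM over 6 of 8 genes with any read, nearly all of it NKG7, and CD3D and CD3G were at 0. Myeloid markers summed to 4.35 to 9.83 CPM over 7 of 8 genes. The extraction text in the labels speaks of retinas, but retina markers summed to 5.83 to 10.5 CPM, nearly all of it PDE6B, and ARR3 was at 0. In bulk RNA, fewer cells expressing a gene and less RNA per cell cannot be told apart.

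Of the 32 genes, 29 had enough reads to be tested. NUPR1, a stress-induced chromatin protein, had 3 reads over the 18 libraries. ALDH1L2, the mitochondrial formyltetrahydrofolate dehydrogenase, had 7. CBS, which makes cystathionine, had 35, with 4 more at its near-identical copy CBSL, and its level is uncertain because the counts omit reads with more than 1 place in the genome. PSPH has a near-identical pseudogene, PSPHP1, which held 2417 reads against 5528 for PSPH, so that the PSPH level is uncertain as well. Per kilobase of exon, DMSO cells at 4 h held most of ATF5 (269 CPM per kilobase), ATF4 (208), DDIT4 (111) and MTHFD2 (98.8). CTH (3.57) and SHMT1 (2.58) were the lowest of the 29 on that scale.

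Most of the list was lower with copanlisib at every time. At 4 h, 25 of the 29 genes were lower and 0 higher by edgeR (adjusted p under 0.05 over all 16122 genes tested), where 20.7% of all genes were called lower and 17.7% higher. At 8 h, 21 were lower and 1 higher, where 18.3% of all genes were lower and 14.8% higher. At 12 h, 25 were lower and 0 higher, where 16.5% were lower and 13.8% higher. The counts of 0 were also 0 at an unadjusted p under 0.05 and with DESeq2 and limma-voom. The median log2 fold change of the 29 genes was -0.40, -0.36 and -0.49 at the 3 times, beside 0.01, 0.02 and 0.00 for all genes tested. Without copanlisib replicates 1 and 2 at 4 h, 25 members were again called lower and 0 higher at 4 h, with a median of -0.36, where 13.4% of 17007 genes were lower and 8.86% higher.

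The calls fell into a few patterns. The 19 genes lower at all 3 times were CEBPG, TRIB3, DDIT4, CHAC1, PPP1R15A, STC2, VLDLR, XPOT, all 3 serine synthesis genes, SHMT2, MTHFD1L, MTHFD2, ASNS, ALDH18A1, PYCR1, GPT2 and CTH. Of all genes tested, 8.32% were called lower at all 3 times. ATF4, DDIT3, SESN2 and PCK2 were called at 4 and 12 h but not at 8 h. ATF5 and CEBPB were called at 4 h only, and MTHFD1 and BCAT1 at 8 and 12 h only. SHMT1 was the 1 gene called higher at any time, and JDP2 was called at none of the 3 times. A fall of at least 2-fold at some time was reached by CHAC1, STC2, PSAT1, ASNS and CTH. Among these patterns, the share of all genes was counted only for lower at all 3 times. All 3 copanlisib libraries lay below all 3 DMSO libraries for 24 of the 29 genes at 4 h, 22 at 8 h and 28 at 12 h. For all genes tested that share was 19.9%, 26.2% and 24.1%.

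**Figure D1:**
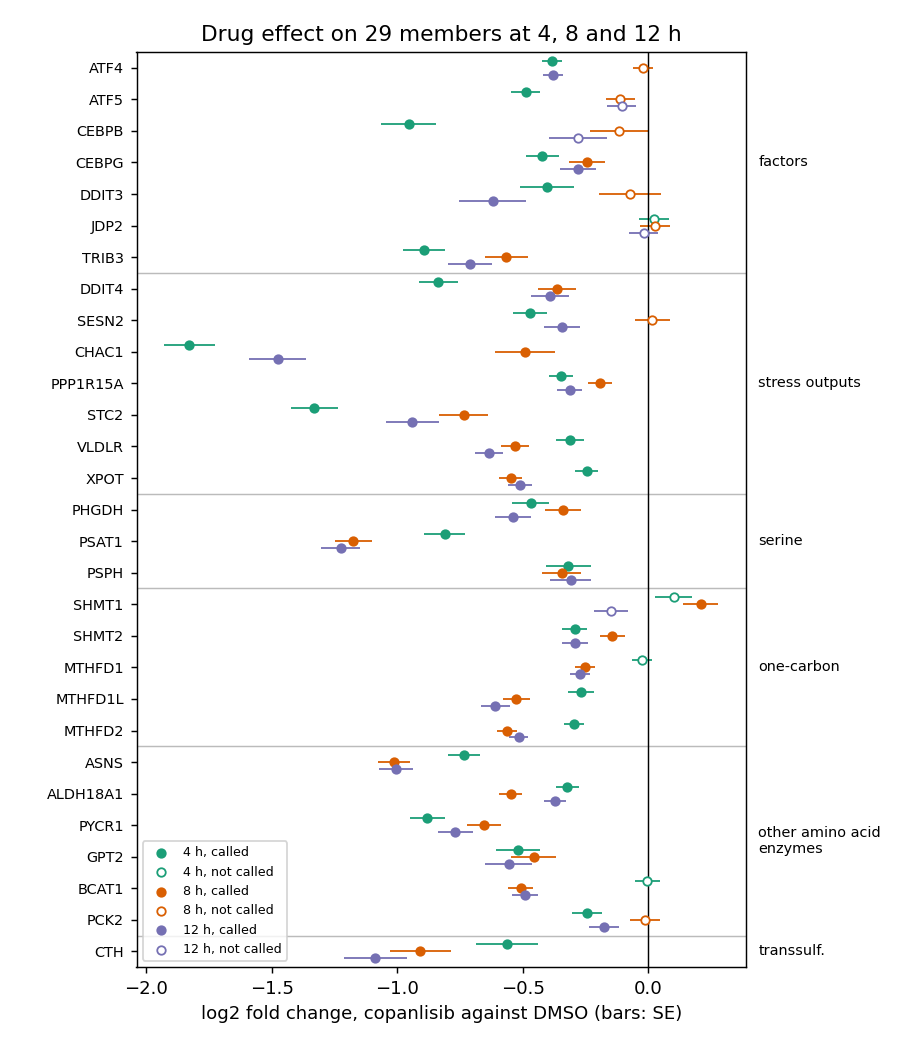
Log2 fold change of copanlisib against DMSO (x axis, bars are the SE) for the 29 tested genes, grouped by role, with 1 point per time and filled points for edgeR adjusted p under 0.05 (n = 3 libraries per group). Nearly all points lie left of 0, CHAC1 reaches -1.83 at 4 h, and JDP2 stays beside 0 at all 3 times.

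The ATF4 pathway factors, which here include the pseudokinase TRIB3, were called most often at 4 h. Of 7 tested, 6 were lower at 4 h, 2 at 8 h and 4 at 12 h, with medians of -0.42, -0.11 and -0.28. ATF4 (hg38 chr22:39519695-39522685, plus strand) measured 522, 506 and 542 CPM in the 3 DMSO libraries at 4 h and 388, 412 and 404 CPM with copanlisib. At 8 h the values were 302, 301 and 298 CPM in DMSO and 288, 302 and 297 CPM with copanlisib. At 12 h the DMSO libraries held 303, 308 and 306 CPM and the copanlisib libraries 241, 236 and 228 CPM. The groups did not overlap at 4 and 12 h, and they overlapped at 8 h. From 4 to 8 h the mean came down from 523 to 300 CPM in DMSO and from 401 to 296 CPM with copanlisib. Its change on the log2 scale was -0.38 ± 0.04 (SE, edgeR adjusted p = 1.9e-08) at 4 h. It was -0.02 ± 0.04 (SE, edgeR adjusted p = 0.72) at 8 h, and -0.38 ± 0.04 (SE, edgeR adjusted p = 4e-08) at 12 h. The drug effect at 8 h minus that at 4 h was 0.36 ± 0.06 (SE, edgeR adjusted p = 0.00027), and 0.34 (edgeR adjusted p = 0.00036) without copanlisib replicates 1 and 2 at 4 h.

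ATF5, a related factor, measured 807, 772 and 809 CPM in DMSO at 4 h and 506, 548 and 649 CPM with copanlisib. After 8 h, DMSO cells held 597, 584 and 566 CPM and copanlisib cells 517, 550.3 and 550.1 CPM. The levels at 12 h were 406, 415 and 422 CPM in DMSO and 394, 379 and 382 CPM with copanlisib. All treated libraries were below all controls at each time, but at 8 and 12 h by little, and at 4 h replicate 3 was the highest of the treated libraries. On the log2 scale copanlisib changed it by -0.49 ± 0.06 (SE, edgeR adjusted p = 1.7e-07) at 4 h, and -0.29 without replicates 1 and 2. The value was -0.11 ± 0.06 (SE, edgeR adjusted p = 0.14) at 8 h and -0.11 ± 0.06 (SE, edgeR adjusted p = 0.17) at 12 h. Neither was called, but both were when only the libraries of that time were fitted (-0.11 and -0.10) and without copanlisib replicates 1 and 2 at 4 h.

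CEBPB and CEBPG encode C/EBP proteins that pair with ATF4. CEBPB measured 25.5, 21.6 and 22.5 CPM in DMSO at 4 h and 9.36, 12.4 and 14.1 CPM with copanlisib. CEBPB stood at 13.1, 10.2 and 13.97 CPM in the 8 h controls and at 11.4, 11.3 and 11.6 CPM in the 8 h treated libraries, and the groups overlapped. After 12 h, CEBPB was at 14.8, 15.3 and 15.2 CPM in DMSO and 13.6, 11.6 and 12.1 CPM with copanlisib. The wide gap was at 4 h, where the control level was at its highest. Its change on the log2 scale was -0.95 ± 0.11 (SE, edgeR adjusted p = 1.2e-07) at 4 h (-0.71 without replicates 1 and 2), -0.12 at 8 h and -0.28 at 12 h, the latter 2 not called (edgeR adjusted p = 0.47 and 0.067). The 12 h value was called, between -0.35 and -0.28, under 6 alternatives. CEBPG had log2 fold changes of -0.42 ± 0.07, -0.24 ± 0.07 and -0.28 ± 0.07 (SE) at 4, 8 and 12 h, all called, from mean levels of 51.8 ± 2.68 CPM (SD, n = 3) in DMSO and 38.7 ± 2.52 CPM with copanlisib at 4 h. Its 12 h call was lost without copanlisib replicate 3 of that time (-0.19, edgeR adjusted p = 0.054).

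DDIT3 encodes CHOP, a C/EBP-family factor of the stress response. It measured 19.9, 17.7 and 18.9 CPM in DMSO at 4 h and 16, 14.02 and 12.5 CPM with copanlisib. In the 8 h libraries DDIT3 measured 9.92, 8.90 and 9.27 CPM (DMSO) and 8.10, 9.99 and 8.67 CPM (copanlisib). The 12 h controls held 10.98, 10.1 and 9.62 CPM of DDIT3 and the 12 h treated libraries 5.26, 8.53 and 6.38 CPM. The groups were apart at 4 and 12 h and overlapped at 8 h, as for ATF4. DDIT3 had a log2 fold change of -0.40 ± 0.11 (SE, edgeR adjusted p = 0.0041) at 4 h, -0.07 at 8 h and -0.62 ± 0.13 (SE, edgeR adjusted p = 0.00071) at 12 h. With counts taken without strand the 4 h value was -0.27 and was not called. Without copanlisib replicates 1 and 2 at 4 h it was -0.58.

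TRIB3, a pseudokinase that ATF4 and CHOP induce and that restrains them, was lower at all times. It measured 47.3, 46.2 and 50.5 CPM in DMSO and 23.03, 23.9 and 30.7 CPM with copanlisib at 4 h. By 8 h it was at 38.2, 36.6 and 35.6 CPM in DMSO and 24.6, 26.3 and 23.9 CPM with copanlisib. For TRIB3 at 12 h, DMSO gave 37.1, 39.04 and 40.8 CPM and copanlisib 25.6, 24.96 and 21.01 CPM. The treated libraries stayed between 21.0 and 30.7 CPM throughout and never overlapped the controls of their time. Its change on the log2 scale was -0.89 ± 0.08 (SE, edgeR adjusted p = 4.6e-09) at 4 h (-0.64 without replicates 1 and 2), -0.57 at 8 h and -0.71 at 12 h.

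JDP2, a basic leucine zipper factor of the AP-1 family, did not follow the others. It measured 40.4, 36.4 and 37.6 CPM in DMSO and 36.7, 38.5 and 40.7 CPM with copanlisib at 4 h. At 8 h the values were 39.9, 36.7 and 38.1 CPM in DMSO and 39.3, 37.5 and 40.1 CPM with copanlisib. Its 12 h levels were 41.4, 42.9 and 43.4 CPM in DMSO and 41.3, 42.5 and 42.3 CPM with copanlisib. The groups overlapped at 4, 8 and 12 h, and the log2 fold changes were 0.02 ± 0.06, 0.03 ± 0.06 and -0.02 ± 0.06 (SE).

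The stress outputs were called lower at nearly every time: 7 of 7 at 4 h, 6 at 8 h and 7 at 12 h, with medians of -0.47, -0.49 and -0.51. CHAC1, an enzyme that degrades glutathione, had the largest fall of the list (chr15:40952962-40956519, plus strand). In DMSO at 4 h it measured 20.4, 18.3 and 18.5 CPM, against 4.70, 5.27 and 6.11 CPM with copanlisib. After 8 h, DMSO cells held 5.92, 6.12 and 6.25 CPM and copanlisib cells 4.26, 4.30 and 4.39 CPM. The levels at 12 h were 11.98, 11.96 and 12.1 CPM in DMSO and 5.15, 4.08 and 3.68 CPM with copanlisib. The treated level was low at every time, while the control level was high at 4 h, low at 8 h and intermediate at 12 h. The log2 change with copanlisib was -1.83 ± 0.10 (SE, edgeR adjusted p = 3e-13) at 4 h, and -1.63 without replicates 1 and 2. It was -0.49 ± 0.12 (SE, edgeR adjusted p = 0.0024) at 8 h, and -1.48 ± 0.11 (SE, edgeR adjusted p = 1.6e-10) at 12 h. The effect at 8 h minus that at 4 h was 1.34 ± 0.16 (SE, edgeR adjusted p = 1.4e-05), and 1.13 (edgeR adjusted p = 0.00015) without those replicates.

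STC2, a secreted glycoprotein, measured 25.01, 23.1 and 22.3 CPM in DMSO and 9.36, 9.64 and 8.88 CPM with copanlisib at 4 h. STC2 stood at 14.9, 12.5 and 15.3 CPM in the 8 h controls and at 8.72, 7.21 and 9.65 CPM in the 8 h treated libraries. After 12 h, STC2 was at 12.99, 13.4 and 12.8 CPM in DMSO and 6.74, 7.15 and 6.59 CPM with copanlisib. No treated library was above 9.65 CPM, and no control library was below 12.5 CPM. Its change on the log2 scale was -1.33 ± 0.09 (SE, edgeR adjusted p = 2.1e-11) at 4 h, -0.74 ± 0.10 (SE, edgeR adjusted p = 1.2e-06) at 8 h and -0.94 ± 0.11 (SE, edgeR adjusted p = 1.3e-07) at 12 h. At 4 h the value without replicates 1 and 2 was -1.39.

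DDIT4 and SESN2 both encode proteins that restrain mTORC1. DDIT4 fell from 228 ± 14.5 CPM (SD, n = 3) in DMSO to 127 ± 24.4 CPM at 4 h. Its log2 fold changes were -0.84 ± 0.08, -0.36 ± 0.08 and -0.39 ± 0.08 (SE) at the 3 times, and the 4 h value was -0.55 without replicates 1 and 2. SESN2 measured 57.4 ± 1.42 CPM in DMSO and 41.4 ± 4.94 CPM with copanlisib at 4 h, with log2 fold changes of -0.47 ± 0.07, 0.02 ± 0.07 and -0.34 ± 0.07 (SE), called at 4 and 12 h. Its 4 h value was -0.28 without those replicates. PPP1R15A measured 153 ± 2.58 CPM (SD, n = 3) in DMSO and 120.4 ± 1.49 CPM with copanlisib at 4 h. This gene, for the inducible subunit of the phosphatase that acts on eIF2alpha, had log2 fold changes of -0.35 ± 0.05, -0.19 ± 0.05 and -0.31 ± 0.05 (SE), called at each time, though not at 8 h (-0.13) when DMSO replicate 1 of that time was left out. VLDLR, a lipoprotein receptor, had log2 fold changes of -0.31 ± 0.06, -0.53 ± 0.06 and -0.63 ± 0.06 (SE), and XPOT, which exports tRNAs from the nucleus, had log2 fold changes of -0.25 ± 0.05, -0.55 ± 0.05 and -0.51 ± 0.05 (SE). At 12 h VLDLR measured 47.7 ± 1.62 CPM (SD, n = 3) in DMSO and 30.7 ± 0.488 CPM with copanlisib. XPOT measured 170.1 ± 5.90 CPM (SD, n = 3) in DMSO and 119 ± 1.29 CPM with copanlisib at 12 h. VLDLR and XPOT had their least negative values at 4 h, and were called at each time. Without replicates 1 and 2 their 4 h values were -0.40 and -0.35.

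**Figure D2:**
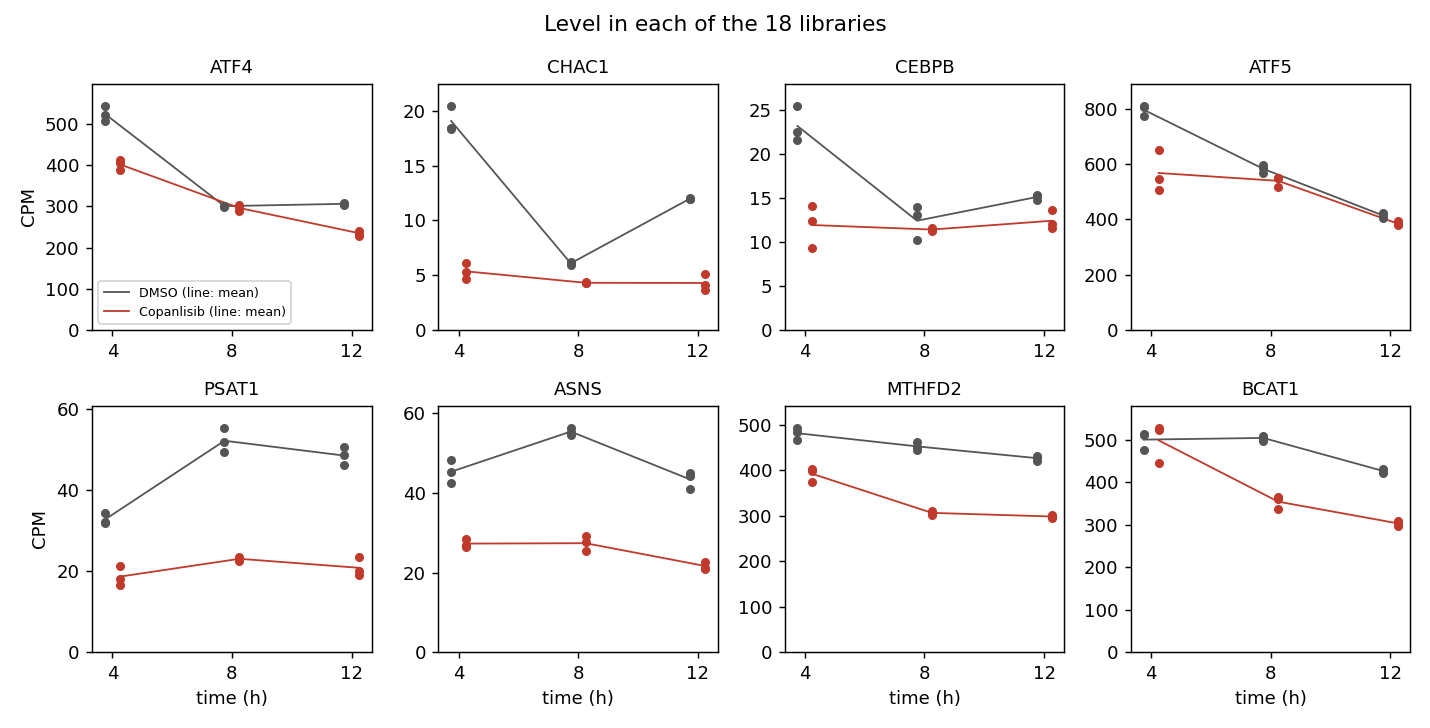
Level of 8 genes in each of the 18 libraries (y axis CPM from 0, x axis time in h, points are libraries and lines join group means, n = 3). In ATF4, CHAC1, CEBPB and ATF5 the DMSO level came down from 4 to 8 h towards the treated level, which in ATF4 came down too. PSAT1, ASNS, MTHFD2 and BCAT1 stayed or moved apart, and BCAT1 overlaps at 4 h.

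All 3 serine synthesis genes were lower at each time, with medians of -0.47, -0.35 and -0.54. PSAT1, the aminotransferase of the pathway, was the lowest of them (chr9:78297143-78330093, plus strand). It measured 32.1, 34.3 and 31.8 CPM in DMSO and 21.2, 16.7 and 18.1 CPM with copanlisib at 4 h. In the 8 h libraries PSAT1 measured 49.3, 51.96 and 55.3 CPM (DMSO) and 22.6, 23.5 and 23.02 CPM (copanlisib). The 12 h controls held 50.7, 46.1 and 48.8 CPM of PSAT1 and the 12 h treated libraries 20.02, 23.4 and 19.1 CPM. Control cells had more PSAT1 at 8 and 12 h than at 4 h, and the treated libraries remained between 16.7 and 23.5 CPM. On the log2 scale copanlisib changed it by -0.81 ± 0.08 (SE, edgeR adjusted p = 1.4e-08) at 4 h. The value was -1.17 ± 0.08 (SE, edgeR adjusted p = 6.6e-12) at 8 h, and -1.23 ± 0.08 (SE, edgeR adjusted p = 6.8e-12) at 12 h.

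PHGDH, the first enzyme of the pathway, measured 56.7, 57.3 and 61.5 CPM in DMSO and 36.5, 41.7 and 48.9 CPM with copanlisib at 4 h. By 8 h it was at 72.3, 69.6 and 68.5 CPM in DMSO and 54.6, 55.7 and 56.1 CPM with copanlisib. For PHGDH at 12 h, DMSO gave 82.8, 86.8 and 87.7 CPM and copanlisib 63.4, 60.3 and 53.5 CPM. The groups were apart at each time, and at 4 h treated replicate 3 was nearest to the controls. PHGDH had a log2 fold change of -0.47 ± 0.08 (SE, edgeR adjusted p = 1.8e-05) at 4 h (-0.26 without replicates 1 and 2), -0.34 at 8 h and -0.54 ± 0.07 (SE, edgeR adjusted p = 1.8e-06) at 12 h. PSPH, the phosphatase of the last step, had log2 fold changes of -0.32 ± 0.09, -0.35 ± 0.08 and -0.31 ± 0.08 (SE), each called. PSPH measured 20.2 ± 1.09 CPM (SD, n = 3) in DMSO and 16.3 ± 0.670 CPM with copanlisib at 12 h, and its groups overlapped at 4 h. Its 4 h call was lost when only the libraries of that time were fitted (-0.32) and without DMSO replicate 2 at 4 h (-0.26).

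Among the one-carbon enzymes, 3 of 5 tested were lower at 4 h, 4 at 8 h and 4 at 12 h, with medians of -0.27, -0.25 and -0.29. The 3 mitochondrial enzymes, MTHFD2, MTHFD1L and SHMT2, were lower at all 3 times. MTHFD2, the mitochondrial dehydrogenase and cyclohydrolase, measured 492, 467 and 484 CPM in DMSO and 399, 402 and 375 CPM with copanlisib at 4 h. At 8 h the values were 462, 445 and 450.0 CPM in DMSO and 302, 309.8 and 307 CPM with copanlisib. Its 12 h levels were 421, 427 and 432 CPM in DMSO and 298, 302 and 295 CPM with copanlisib. Every treated library was below every control library of its time. The log2 change with copanlisib was -0.30 ± 0.04 (SE, edgeR adjusted p = 9.2e-07) at 4 h, -0.56 ± 0.04 (SE, edgeR adjusted p = 1.9e-11) at 8 h and -0.52 ± 0.04 (SE, edgeR adjusted p = 1.2e-10) at 12 h. MTHFD1L, the mitochondrial formate-producing synthetase, had log2 fold changes of -0.27 ± 0.05, -0.53 ± 0.05 and -0.61 ± 0.06 (SE), from 33.4 ± 1.04 CPM (SD, n = 3) in DMSO and 21.9 ± 0.818 CPM with copanlisib at 12 h. MTHFD1, the cytosolic enzyme of several folate steps, had log2 fold changes of -0.03 ± 0.04, -0.25 ± 0.04 and -0.27 ± 0.04 (SE), called at 8 and 12 h only. MTHFD1 measured 497 ± 0.947 CPM (SD, n = 3) in DMSO and 411 ± 11.2 CPM with copanlisib at 12 h.

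SHMT2 and SHMT1 convert serine to glycine in mitochondria and in the cytosol. SHMT2 measured 296, 288 and 301 CPM in DMSO and 221, 237 and 264 CPM with copanlisib at 4 h. After 8 h, DMSO cells held 303, 298 and 288 CPM and copanlisib cells 273, 273 and 259 CPM. The levels at 12 h were 263, 274 and 278 CPM in DMSO and 229, 223 and 214 CPM with copanlisib. The groups were apart at each time, by least at 8 h. The log2 fold changes were -0.29 ± 0.05, -0.14 ± 0.05 and -0.29 ± 0.05 (SE), with -0.16 at 4 h without replicates 1 and 2. The 8 h call (edgeR adjusted p = 0.027) was lost without DMSO replicate 1 or 2 or copanlisib replicate 2 or 3 of that time, without the filter on low counts, and at an adjusted p under 0.01, over which its value ranged from -0.15 to -0.12.

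SHMT1 measured 17.2, 20.8 and 18.5 CPM in DMSO and 18.8, 21.6 and 20.5 CPM with copanlisib at 4 h. SHMT1 stood at 20.9, 20.4 and 20.6 CPM in the 8 h controls and at 25.4, 23.7 and 22.5 CPM in the 8 h treated libraries. After 12 h, SHMT1 was at 32.3, 32.8 and 32.7 CPM in DMSO and 29.6, 29.2 and 29.4 CPM with copanlisib. The treated libraries were above the controls at 8 h and below them at 12 h, and at 4 h the groups overlapped. Its change on the log2 scale was 0.21 ± 0.07 (SE, edgeR adjusted p = 0.027) at 8 h, 0.10 at 4 h and -0.15 ± 0.07 (SE, edgeR adjusted p = 0.1) at 12 h. The 8 h call was lost without DMSO replicate 2 or 3 or copanlisib replicate 1 of that time, where the value was 0.16 at the lowest. At 12 h it was called lower (-0.15) with only the 12 h libraries and without copanlisib replicates 1 and 2 at 4 h.

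Of the enzymes of asparagine, proline, alanine, leucine and phosphoenolpyruvate metabolism, 5 of 6 were lower at 4 h, 5 at 8 h and 6 at 12 h, with medians of -0.42, -0.53 and -0.52. ASNS, asparagine synthetase and a standard ATF4 target (chr7:97852118-97872542, minus strand), carries the core printed above at position -68. It measured 42.5, 45.4 and 48.2 CPM in DMSO and 28.4, 26.5 and 27 CPM with copanlisib at 4 h. In the 8 h libraries ASNS measured 54.7, 55.3 and 56.3 CPM (DMSO) and 25.4, 27.6 and 29.2 CPM (copanlisib). The 12 h controls held 41.02, 44.2 and 45.01 CPM of ASNS and the 12 h treated libraries 21.2, 22.8 and 21.01 CPM. No treated library came above 29.2 CPM, and no control library below 41.0 CPM. On the log2 scale copanlisib changed it by -0.73 ± 0.06 (SE, edgeR adjusted p = 1.2e-09) at 4 h, -1.01 ± 0.06 (SE, edgeR adjusted p = 4.7e-12) at 8 h and -1.005 ± 0.07 (SE, edgeR adjusted p = 1.3e-11) at 12 h.

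ALDH18A1 and PYCR1 carry proline synthesis from glutamate. ALDH18A1 had log2 fold changes of -0.32 ± 0.05, -0.55 ± 0.04 and -0.37 ± 0.05 (SE) at 4, 8 and 12 h, and PYCR1 had -0.88 ± 0.07, -0.65 ± 0.07 and -0.77 ± 0.07 (SE). ALDH18A1 measured 89.2 ± 2.46 CPM (SD, n = 3) in DMSO and 61.01 ± 0.561 CPM with copanlisib at 8 h. PYCR1 fell from 174 ± 5.52 CPM (SD, n = 3) to 94.7 ± 14.8 CPM at 4 h, and its 4 h value was -0.64 without replicates 1 and 2. GPT2, the mitochondrial alanine aminotransferase, had log2 fold changes of -0.52 ± 0.09, -0.46 ± 0.09 and -0.56 ± 0.09 (SE), with -0.36 at 4 h without those replicates. GPT2 measured 22.2 ± 2.29 CPM (SD, n = 3) in DMSO and 15.1 ± 1.48 CPM with copanlisib at 12 h. PCK2, the mitochondrial enzyme that makes phosphoenolpyruvate, had log2 fold changes of -0.24 ± 0.06, -0.01 ± 0.06 and -0.18 ± 0.06 (SE). PCK2 measured 113 ± 1.42 CPM (SD, n = 3) in DMSO and 99.8 ± 2.01 CPM with copanlisib at 12 h. Its 4 h call was lost without replicates 1 and 2 (-0.06, edgeR adjusted p = 0.55) and with only the 4 h libraries (-0.25). Its 12 h call was lost without any 1 of the 3 DMSO libraries or copanlisib replicate 2 of that time, with values from -0.18 to -0.16.

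BCAT1, the cytosolic aminotransferase of branched-chain amino acids, was late. It measured 511, 514 and 477 CPM in DMSO and 528, 524 and 446 CPM with copanlisib at 4 h. By 8 h it was at 505, 511 and 499 CPM in DMSO and 337, 366 and 361 CPM with copanlisib. For BCAT1 at 12 h, DMSO gave 429, 431 and 422 CPM and copanlisib 309, 304 and 298 CPM. The groups overlapped at 4 h and were apart at 8 and 12 h. BCAT1 had a log2 fold change of -0.51 ± 0.05 (SE, edgeR adjusted p = 1.4e-08) at 8 h and -0.49 ± 0.05 (SE, edgeR adjusted p = 3.6e-08) at 12 h. At 4 h copanlisib replicates 1 and 2 were above all controls and replicate 3 below them, and without replicates 1 and 2 the 4 h value was -0.17 (edgeR adjusted p = 0.011) and was called.

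CTH, the enzyme that releases cysteine from cystathionine, was the 1 transsulfuration gene tested. It measured 8.29, 9.03 and 8.55 CPM in DMSO and 5.77, 5.47 and 6.32 CPM with copanlisib at 4 h. At 8 h the values were 10.7, 9.45 and 8.75 CPM in DMSO and 5.27, 6.24 and 4.13 CPM with copanlisib. Its 12 h levels were 11.2, 9.71 and 10.2 CPM in DMSO and 4.83, 4.58 and 5.19 CPM with copanlisib. Treated and control libraries were apart at each time. The log2 change with copanlisib was -0.56 ± 0.12 (SE, edgeR adjusted p = 0.00073) at 4 h, -0.91 ± 0.12 (SE, edgeR adjusted p = 1.4e-06) at 8 h and -1.09 ± 0.13 (SE, edgeR adjusted p = 2e-07) at 12 h. With 73 to 230 reads per library and 2489 in all, it had the fewest reads of the 29 genes.

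The drug effect itself was compared between times by interaction contrasts, which use the controls and the treated libraries of both times. Between 4 and 8 h, 7 of the 29 effects became less negative and 8 more negative, where 9.29% of all genes moved up and 9.86% down. The 7 were ATF4, ATF5, CEBPB, DDIT4, SESN2, CHAC1 and STC2, all of them factors or stress outputs. The 8 were XPOT, PSAT1, MTHFD1, MTHFD1L, MTHFD2, ASNS, ALDH18A1 and BCAT1, all enzymes but XPOT. Between 4 and 12 h, 3 effects became less negative (ATF5, CEBPB and DDIT4), a count near the share of all genes that moved up (8.98%). In the same contrast 9 became more negative (VLDLR, XPOT, PSAT1, MTHFD1, MTHFD1L, MTHFD2, ASNS, BCAT1 and CTH), where 7.69% of all genes moved down. BCAT1 had the most negative shift to 8 h, -0.50 ± 0.07 (SE, edgeR adjusted p = 0.00015). MTHFD1L shifted by -0.34 ± 0.08 (SE, edgeR adjusted p = 0.0041) between 4 and 12 h. Both contrasts rest on the same 4 h libraries and are not independent.

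Fewer of these differences were called when the 2 libraries that stood apart were left out, as were fewer of all genes. Without copanlisib replicates 1 and 2 at 4 h, 4 effects were less negative at 8 h than at 4 h (ATF4, CEBPB, CHAC1 and STC2) and 2 were more negative (MTHFD2 and BCAT1), where 1.06% and 1.34% of 17007 genes were. For 12 h against 4 h, 0 were less negative (5 at an unadjusted p under 0.05) and 3 more negative (MTHFD1, MTHFD1L and BCAT1), where 2.63% and 2.66% of all genes were. For ATF5, DDIT4 and SESN2 the shift to 8 h was then 0.17, 0.18 and 0.29 and was not called (edgeR adjusted p = 0.11, 0.22 and 0.078). XPOT and MTHFD1 also lost their call to 8 h and became smaller in size, from -0.30 to -0.20 and from -0.23 to -0.17. Some shifts to 8 h lost their call at nearly the same size. PSAT1 went from -0.36 to -0.32, MTHFD1L from -0.26 to -0.23, ASNS from -0.28 to -0.27 and ALDH18A1 from -0.23 to -0.22. For 12 h, PSAT1 went from -0.41 to -0.37 and ASNS from -0.27 to -0.26, and CTH went from -0.52 to -0.64. The other 12 h shifts that lost their call became smaller in size. ATF5 went from 0.38 to 0.18, CEBPB from 0.67 to 0.43 and DDIT4 from 0.44 to 0.15. VLDLR went from -0.32 to -0.24, XPOT from -0.27 to -0.16 and MTHFD2 from -0.22 to -0.16.

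**Figure D3:**
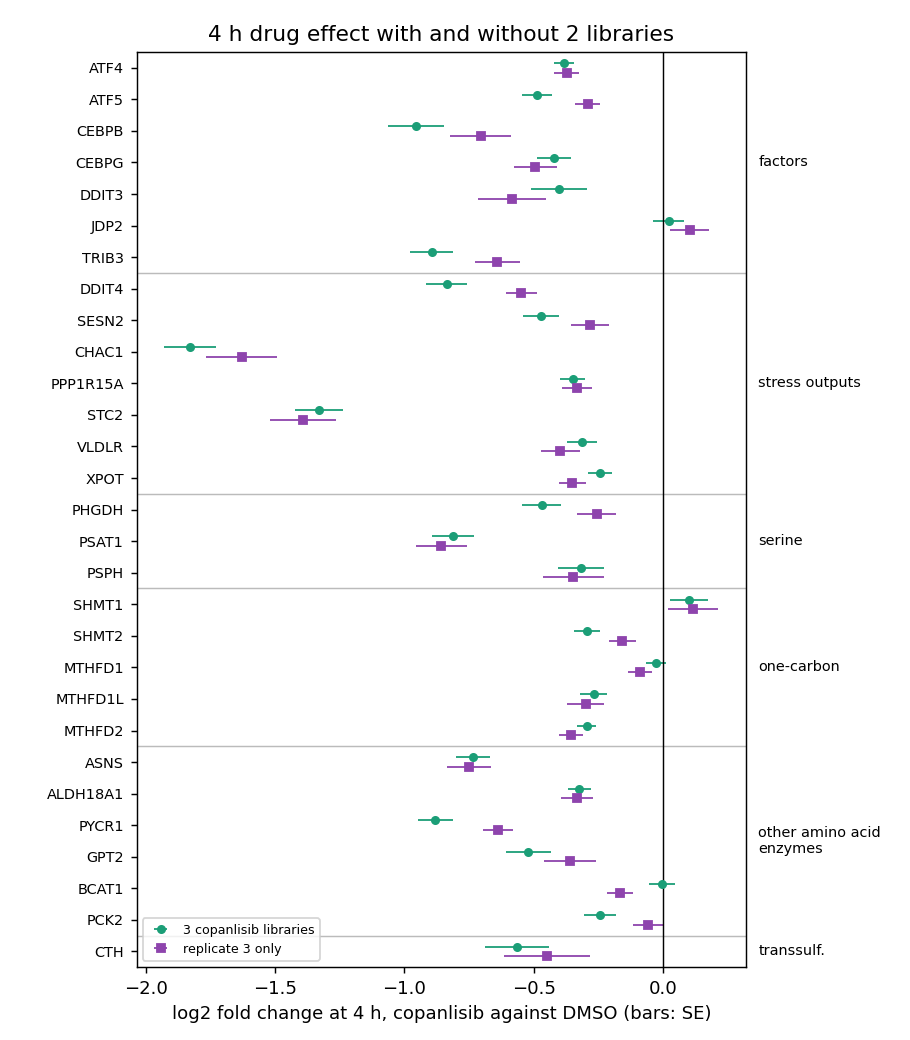
Log2 fold change at 4 h (x axis, bars are the SE) for the 29 genes with all 3 copanlisib libraries (circles) and with replicate 3 alone (squares), each against the 3 DMSO libraries. CHAC1 and STC2 stay the lowest in both, DDIT4 moves from -0.84 to -0.55, and PCK2 moves next to 0.

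Control cells changed as well during the hours of culture. In DMSO, 16 of the 29 genes were lower and 8 higher at 12 h than at 4 h, where 25.4% of all genes were lower and 23.2% higher. With copanlisib 16 were lower and 6 higher, where 26.3% and 25.6% were, and these 2 comparisons share no library. In both comparisons the count of higher genes was near the share of all genes. The factors and stress outputs came down in DMSO, with 6 of 7 factors lower (median -0.74) and 5 of 7 stress outputs lower (median -0.43). ATF4 changed by -0.78 ± 0.04 (SE, edgeR adjusted p = 3.2e-14) in DMSO and by -0.77 ± 0.04 (SE, edgeR adjusted p = 3.1e-14) with copanlisib. DDIT3 changed by -0.88 and -1.09, and PPP1R15A by -0.70 and -0.67. The 3 serine synthesis genes went the other way in DMSO (median 0.55), with PHGDH at 0.55 ± 0.07 (SE, edgeR adjusted p = 5.5e-07), PSPH at 0.50 and PSAT1 at 0.57. With copanlisib PHGDH rose by 0.48 and PSPH by 0.51, and PSAT1 was not called. With copanlisib replicates 1 and 2 at 4 h left out, PHGDH rose by 0.28 and PSPH by 0.55, and PSAT1 was again not called. With copanlisib, 17 of the 29 genes were then lower and 6 higher at 12 h than at 4 h, where 18.1% of 17007 genes were lower and 19.2% higher.

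In both treatments, 14 genes were called lower and 6 higher at 12 h than at 4 h, where 16.8% of all genes were lower in both and 15.6% higher in both. The 6, a count near the share of all genes higher in both, were DDIT4, PHGDH, PSPH, SHMT1, MTHFD1 and PCK2. Some of these calls did not hold under every alternative. CHAC1 with copanlisib (-0.31) lost its call under 13 of them, at -0.32 to -0.20, GPT2 in DMSO without DMSO replicate 2 at 12 h (-0.23), and DDIT4 in DMSO with counts taken without strand (0.21). Without copanlisib replicates 1 and 2 at 4 h, the change with copanlisib went from 0.72 to 0.44 for DDIT4, from -0.31 to -0.50 for CHAC1, from -0.25 to -0.43 for SESN2, from -0.33 to -0.56 for PYCR1 and from 0.53 to 0.35 for PCK2, each still called. SHMT1 rose by 0.78 in DMSO and 0.54 with copanlisib, and MTHFD1 by 0.47 and 0.22. In the mitochondrial arm MTHFD1L fell by 0.48 in DMSO and by 0.82 with copanlisib on the log2 scale, and MTHFD2 by 0.17 and 0.39. SHMT2, also mitochondrial, changed by -0.12 in both treatments and was not called in either. Some genes changed by call in 1 treatment only: ASNS and VLDLR were called lower with copanlisib, at -0.34 and -0.27, and CEBPB and TRIB3 lower in DMSO, at -0.61 and -0.30. Without copanlisib replicates 1 and 2 at 4 h, VLDLR with copanlisib was no longer called (-0.18, edgeR adjusted p = 0.061), while TRIB3 (-0.36) and SHMT2 (-0.24) were called lower with copanlisib. The difference between treatments in this change is the 12 h against 4 h contrast above, in which ASNS, VLDLR and CEBPB were called and TRIB3 was not. Those calls did not hold without copanlisib replicates 1 and 2 at 4 h. ASNS then went from -0.27 to -0.26, VLDLR from -0.32 to -0.24 and CEBPB from 0.67 to 0.43. The ASNS call in this contrast was lost under 16 alternatives.

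**Figure D4:**
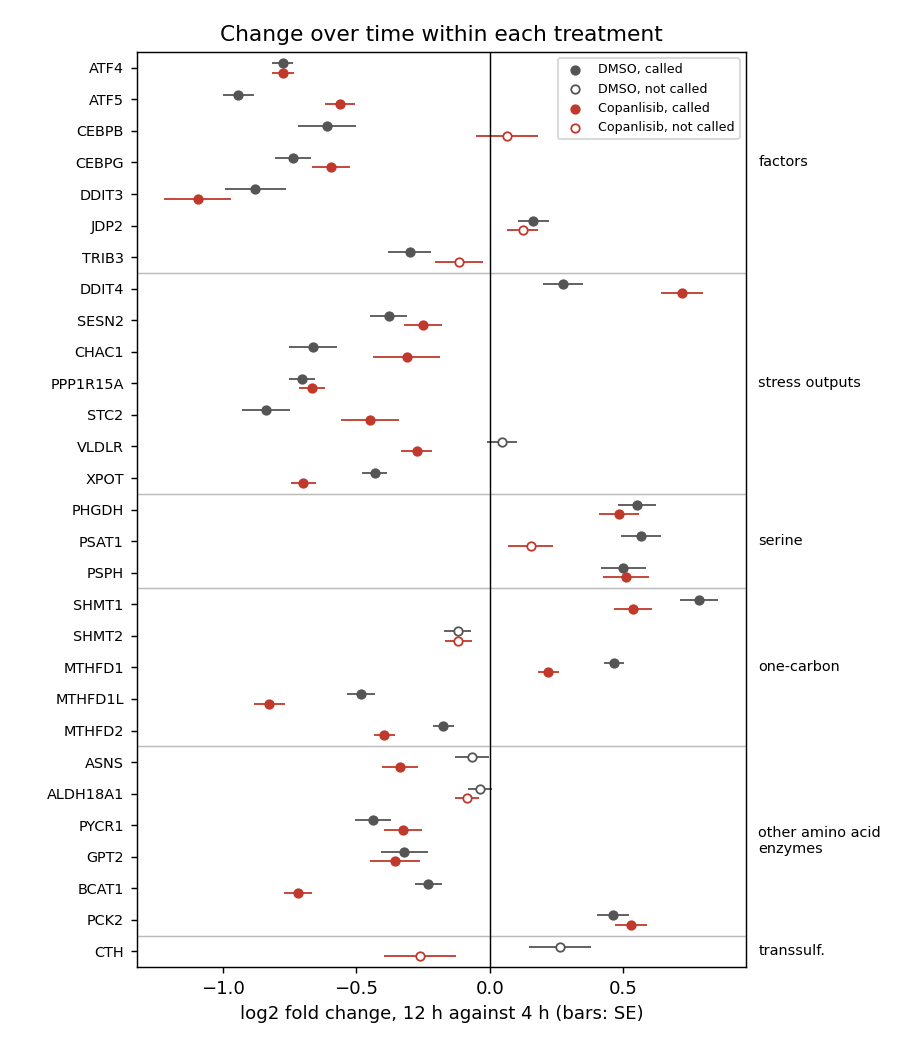
Log2 fold change of 12 h against 4 h (x axis, bars are the SE) within DMSO (grey) and within copanlisib (red) for the 29 genes, filled where called (n = 3 libraries per group). Of the factors, all but JDP2 in both treatments and CEBPB with copanlisib lie left of 0, the serine synthesis genes, SHMT1, MTHFD1 and PCK2 lie right of it, and BCAT1 lies at -0.23 in DMSO and -0.72 with copanlisib.

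Related genes outside the list were counted in the same fit. Of all genes tested, 17.7% were higher and 20.7% lower at 4 h, 14.8% higher and 18.3% lower at 8 h, and 13.8% higher and 16.5% lower at 12 h. The 4 h shares without copanlisib replicates 1 and 2 were 8.86% and 13.4%. Of 10 genes for eIF2alpha, its kinases and their regulators, its exchange factor and its phosphatases, 3 were higher and 2 lower after 4 h (median log2 fold change 0.04), of which the lower count is near the share of all genes. After 8 h 5 were lower (median -0.11) and after 12 h 3 (median -0.03), with 0 higher at both times (at 12 h, 1 with DESeq2 and 1 at an unadjusted p under 0.05). EIF2S1, which encodes eIF2alpha, had log2 fold changes of -0.34 ± 0.06, -0.62 ± 0.06 and -0.47 ± 0.06 (SE) and PPP1R15B, the constitutive phosphatase subunit, -0.38 ± 0.05, -0.36 ± 0.05 and -0.35 ± 0.05 (SE). At 4 h EIF2S1 was at -0.57 without copanlisib replicates 1 and 2. EIF2AK2, the kinase PKR, was higher at 4 h, by 0.29 ± 0.05 (SE, edgeR adjusted p = 9.5e-05), a call lost without replicates 1 and 2 (0.14). Without those replicates 0 of these 10 were higher and 3 lower at 4 h.

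Of 14 genes of the endoplasmic reticulum unfolded protein response, 10 were lower and 0 higher after 4 h. After 8 h 13 were lower and 1 higher, and the 12 h counts were 10 lower and 0 higher, with medians of -0.23, -0.39 and -0.42. HSPA5, the chaperone BiP, had log2 fold changes of -0.52 ± 0.04, -0.78 ± 0.04 and -0.76 ± 0.04 (SE), and MANF, a secreted stress protein, -0.43 ± 0.06, -0.74 ± 0.06 and -0.81 ± 0.06 (SE). SDF2L1, a chaperone cofactor, had log2 fold changes of -1.40 ± 0.14, -0.59 ± 0.12 and -0.68 ± 0.13 (SE), and -0.89 at 4 h without replicates 1 and 2. Without those replicates 11 were lower and 0 higher at 4 h.

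The folate and methionine genes beyond the list were mixed: of 19 tested, 3 were higher, near the share of all genes, and 7 lower after 4 h. The 8 h counts were 3 higher and 8 lower, those of 12 h 1 higher and 8 lower, and the medians were -0.06, -0.11 and -0.14. SLC25A32, the mitochondrial folate carrier, had log2 fold changes of -0.86 ± 0.05, -0.79 ± 0.06 and -0.61 ± 0.06 (SE). SLC19A1, the reduced folate carrier of the cell membrane, had log2 fold changes of -0.92 ± 0.10, -0.68 ± 0.10 and -0.63 ± 0.10 (SE), and -0.55 at 4 h without replicates 1 and 2. With those 2 libraries left out, 3 were higher and 4 lower of 20 tested at 4 h.

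Among 8 glutathione genes, 4 were lower and 0 higher after 4 h (3 lower without replicates 1 and 2). After 8 h 4 were lower and 1 higher, and after 12 h 3 were lower and 0 higher, with medians of -0.19, -0.15 and -0.16. At an unadjusted p under 0.05, 1 was higher at 12 h, and with DESeq2 0. SLC7A11, the cystine importer and a known ATF4 target, had log2 fold changes of -1.03 ± 0.10, -1.20 ± 0.11 and -1.55 ± 0.13 (SE), with an edgeR adjusted p of 5.5e-10 at 12 h. Its 12 h log2 fold change was the lowest of the genes named here. GCLM, a subunit of the enzyme that starts glutathione synthesis, had log2 fold changes of -0.28 ± 0.07, -0.34 ± 0.08 and -0.40 ± 0.08 (SE). Of 12 other proline, glutamate and branched-chain genes tested, 4 were lower and 1 higher after 4 h (3 lower and 0 higher without those replicates). The 8 h counts were 4 lower and 1 higher, those of 12 h 3 lower and 2 higher, with medians of -0.24, -0.11 and -0.04. PYCR3, the cytosolic enzyme of the last proline step, had log2 fold changes of -1.09 ± 0.10, -0.68 ± 0.09 and -0.53 ± 0.10 (SE). PCK1, the cytosolic counterpart of PCK2, was the higher gene at 8 h, by 1.23 ± 0.32 (SE, edgeR adjusted p = 0.0041), from only 3 to 33 reads per library.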

How the data were processed

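Libraries were made from 18 samples of HAIR-M. Per the submitters' processing notes, CASAVA 1.7 and STAR 2.5.2b were used with build hg38, and no source used here gives the annotation version. The authors deposited raw read counts per gene, with no normalization. The kit named in the labels is an unstranded one, yet 94.3% to 95.3% of the stranded reads were in 1 strand column, so that column was used and the column without strand was an alternative. Summary lines that name no gene (24.8% to 32.5% of reads) were left out.

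Genes were filtered with filterByExpr (16122 of 35239 with any read were tested), scaled by TMM and fitted with a mean per group over all 18 libraries in edgeR 4.0.16 (R 4.3.3). Quasi-likelihood tests were two-sided, with Benjamini-Hochberg adjustment over all genes tested and 0.05 as the threshold for a call. The common biological coefficient of variation was 0.0500. CPM of members use the TMM-scaled library sizes, while CPM of cell type markers use the gene reads of each library without that scaling. The SE is the size of the log2 fold change divided by the square root of F. The fit was also run on simulated counts with changes set only in the 8 h drug contrast and no library set apart. That run does not bear on the 4 h or interaction contrasts. Alternatives used DESeq2 1.42.0, limma-voom (limma 3.58.1) and the settings given in the closing section. Same-numbered copanlisib and DMSO libraries of a time had correlations of -0.03 to 0.10 in their deviations from group means, so the numbers were not taken to pair samples.

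Values of every library are given for the 4 lowest and 2 highest tested members at any time and for ATF4, ATF5, DDIT3, ASNS, PHGDH, PSAT1, SHMT1, SHMT2 and MTHFD2. BCAT1 was added to these after its values were seen. Of each list outside the 32 genes, up to 3 called genes with the largest change could be named. The members and lists were chosen with earlier results of these data known.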

Additional observations from a re-analysis of the deposited data

Results flagged for a closer look

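The drug effect on 15 of the 29 tested genes differed between 4 and 8 h by the interaction contrast of edgeR (adjusted p under 0.05), where 9.29% of all genes were called higher and 9.86% lower. Among factors and stress outputs the difference (8 h effect minus 4 h effect, log2) was 0.36 for ATF4, 0.38 for ATF5, 0.84 for CEBPB, 0.47 for DDIT4, 0.49 for SESN2, 1.34 for CHAC1 and 0.59 for STC2, and -0.30 for XPOT. Among the enzymes it was -0.36 for PSAT1, -0.23 for MTHFD1, -0.26 for MTHFD1L, -0.27 for MTHFD2, -0.28 for ASNS, -0.23 for ALDH18A1 and -0.50 for BCAT1. Without copanlisib replicates 1 and 2 at 4 h the values that were still called were 0.34 for ATF4, 0.58 for CEBPB, 1.13 for CHAC1, 0.65 for STC2, -0.21 for MTHFD2 and -0.35 for BCAT1. Those no longer called were 0.17 for ATF5, 0.18 for DDIT4, 0.29 for SESN2, -0.20 for XPOT, -0.32 for PSAT1, -0.17 for MTHFD1, -0.23 for MTHFD1L, -0.27 for ASNS and -0.22 for ALDH18A1. Over all alternatives, this one included, the call was lost under 9 for ASNS, 6 for PSAT1, 3 for MTHFD1L and 3 for ALDH18A1.

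The effect differed between 4 and 12 h for 12 genes, where 8.98% of all genes were called higher and 7.69% lower. Of these genes 3 were higher, a count near the share of all genes. The difference (12 h effect minus 4 h effect, log2) was 0.38 for ATF5, 0.67 for CEBPB and 0.44 for DDIT4. It was -0.32 for VLDLR, -0.27 for XPOT, -0.41 for PSAT1, -0.25 for MTHFD1, -0.34 for MTHFD1L, -0.22 for MTHFD2, -0.27 for ASNS, -0.49 for BCAT1 and -0.52 for CTH. Without those 2 libraries the values that were still called were -0.18 for MTHFD1, -0.31 for MTHFD1L and -0.33 for BCAT1. Those no longer called were 0.18 for ATF5, 0.43 for CEBPB, 0.15 for DDIT4, -0.24 for VLDLR, -0.16 for XPOT, -0.37 for PSAT1, -0.16 for MTHFD2, -0.26 for ASNS and -0.64 for CTH. The ASNS value (edgeR adjusted p = 0.046) and the CTH value (edgeR adjusted p = 0.044) each lost their call under 16 of the alternatives, and PSAT1 under 4.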

How the results depend on the processing

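Counts of members called lower with copanlisib kept within 1.5 times under every alternative run: 23 to 25 at 4 h, 19 to 22 at 8 h and 24 to 28 at 12 h. The replicate block, with the number as a term, gave 25, 21 and 25 members lower, and it changed no count of members in any comparison. All genes called at 4 h went from 6195 to 3778 without copanlisib replicates 1 and 2 at 4 h, and to 3733 with only the 4 h libraries. The next values again leave out those 2 libraries. For 8 h against 4 h, all genes called went from 3086 to 409, members lower from 8 to 2 and members higher from 7 to 4. For 12 h against 4 h, all genes called went from 2688 to 900, members lower from 9 to 3 and members higher from 3 to 0. With an adjusted p under 0.01 the 1 member higher at 8 h became 0, members lower for 8 h against 4 h became 4, and all genes called became 1062 (8 h against 4 h) and 1134 (12 h against 4 h). Without the filter on low counts, members lower for 8 h against 4 h became 5. The cause of these shifts was not tested.

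Leaving out 1 library at a time, members lower ranged from 24 to 25 at 4 h, 19 to 22 at 8 h and 24 to 27 at 12 h, and members higher at 8 h from 0 to 1. All genes called ranged from 4903 to 7857, 4312 to 6670 and 3909 to 6206. For 8 h against 4 h, members lower ranged from 6 to 9, members higher from 7 to 13 and all genes from 1650 to 6353. For 12 h against 4 h these were 6 to 9, 3 to 9 and 1596 to 5781. The highest counts for these 2 contrasts came without copanlisib replicate 3 at 4 h.

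Values that changed sign were small and not called in either fit. Leaving out 1 library at a time, at 4 h JDP2 ranged from -0.015 to 0.061, MTHFD1 from -0.056 to 0.0054, BCAT1 from -0.052 to 0.071 and PCK1 from -0.21 to 0.14. At 8 h JDP2 ranged from -0.0037 to 0.068, SESN2 from -0.0052 to 0.060 and PCK2 from -0.030 to 0.0088. Counts without strand gave 0.00029 for MTHFD1 and 0.0054 for BCAT1 at 4 h, and no filter gave 0.0026 for BCAT1.

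NUPR1, ALDH1L2 and CBS had too few reads to be tested. Uncounted reads with several places in the genome bear on CBS and PSPH.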
